A study of Mus musculus with 6 samples.

Results

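The 7 genes described here are transcription factors and structural markers of the endothelial-to-mesenchymal transition, the programme by which an endothelial cell loses its junctions and takes on mesenchymal features: Snai1, Snai2, Zeb1, Zeb2, Twist1, Vim and S100a4. They were taken by symbol and are 7 of the 24421 gene symbols listed in each library. Of these, 6 had enough counts to be tested, among 12892 tested genes, and S100a4 did not. The study compared cultured sinusoidal endothelial cells of mouse liver (LSECs), which line the hepatic sinusoids and carry fenestrae, with and without hydrostatic pressure. Cells of wild genotype were picked with CD146 beads, kept overnight on collagen I and starved of serum for 6 h. The pressure group (3 samples) then underwent cycles between 101 and 135 kPa (absolute) at 0.01 Hz over 8 h, and 3 samples were controls. The labels give no strain, sex or age, do not say whether samples came from separate animals, pools or cultures, and do not state how long controls were kept or how they were handled while the other cells were under pressure. Culture time, handling and pressure therefore cannot be told apart, and the p-values speak of the variation among these 6 samples alone, part of which may be technical. All 6 carry the same batch label.

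The snail proteins (Snai1 and Snai2) and the ZEB proteins (Zeb1 and Zeb2) are zinc-finger repressors that bind E-box sequences in promoters of junction genes, and Twist1 is a basic helix-loop-helix factor that pairs with E-proteins. In the textbook account, signals such as TGF-beta raise these factors, endothelial junction and receptor genes are repressed, and mesenchymal genes are switched on. Vimentin (Vim), the intermediate filament protein of mesenchymal cells, is also a normal component of endothelial cells, and S100a4, a calcium-binding protein also called fibroblast-specific protein, is expressed by leukocytes as well as fibroblasts. Neither is therefore specific to a transition.

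Promoter windows from RefSeq (GRCm38.p6) ran from 250 bases before to 50 after an annotated gene start. They are reported for 5 of the 7 genes, Snai1, Zeb2 (4 windows), Twist1, Vim and S100a4. Each was searched on both strands for the E-box CAGGTG that snail and ZEB proteins bind, the AP-1 site TGANTCA and the cAMP response element TGACGTCA. Only the windows with a match are shown, those of Snai1 and Zeb2. Windows of Snai2 and Zeb1 are not reported here, so neither gene's window can be compared with that of its relative. Capitals mark the matches. The Snai1 window lies at chr2:167537945-167538244 on the plus strand and holds 1 E-box, read as CACCTG, 126 bases before the start. The Zeb2 window lies at chr2:45110228-45110527 on the minus strand and holds AP-1 matches 189 and 132 bases before the annotated start it covers. That start is an alternative one inside the gene, whose outermost start is at 45117395. The window at the outermost start (chr2:45117393-45117692) holds no match.
Snai1: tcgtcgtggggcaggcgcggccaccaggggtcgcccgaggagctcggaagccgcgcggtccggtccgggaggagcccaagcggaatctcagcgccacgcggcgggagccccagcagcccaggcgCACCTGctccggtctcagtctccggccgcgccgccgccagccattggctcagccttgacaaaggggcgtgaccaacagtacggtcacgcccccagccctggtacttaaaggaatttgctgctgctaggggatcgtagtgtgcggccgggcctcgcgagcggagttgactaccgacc
Zeb2: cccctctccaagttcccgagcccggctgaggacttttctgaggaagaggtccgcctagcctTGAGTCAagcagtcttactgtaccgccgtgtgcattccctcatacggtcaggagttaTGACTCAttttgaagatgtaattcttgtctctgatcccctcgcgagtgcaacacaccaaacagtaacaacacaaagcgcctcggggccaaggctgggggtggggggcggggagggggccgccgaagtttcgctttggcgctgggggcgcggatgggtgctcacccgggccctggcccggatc
An E-box of these letters is in 20.2% of all 32851 windows of the same length, an AP-1 match in 7.81% and a cAMP response element in 1.79%. The windows of Twist1, Vim and S100a4 and the other 3 of Zeb2 hold none of the 3 motifs. A match describes letters and does not show binding.

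Under pressure 4 of the genes rose and 1 fell. Snai2 and Vim rose most, 3.31-fold and 2.42-fold, Zeb2 and Twist1 rose less, 1.63-fold and 1.48-fold, and Zeb1 fell to 0.617 of its control level. Levels are CPM, counts scaled to a common library size with TMM factors (trimmed mean of M-values, which correct for library composition), and tests are edgeR's quasi-likelihood F-test adjusted by Benjamini-Hochberg across every tested gene, at a threshold of 0.05. By that test 5 of the 6 tested members were called, in a comparison in which 68.8% of all tested genes were called (33.7% higher and 35.1% lower). A call is therefore common in these data, and the counts of members called are read against that share. The 3 pressure values lay wholly above or wholly below the 3 control values for all 6 tested members, as they did for 71.9% of tested genes. A rise of at least 2-fold that passed the test was seen for 2 members, Snai2 and Vim, and for 9.64% of tested genes. The scaling matters for small changes: scaled by library totals only, 34.7% of the calls were for higher genes (49% with TMM factors), and the median log2 change over all tested genes went from -0.015 to -0.23 (-0.13 with upper-quartile factors).

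**Figure D1:**
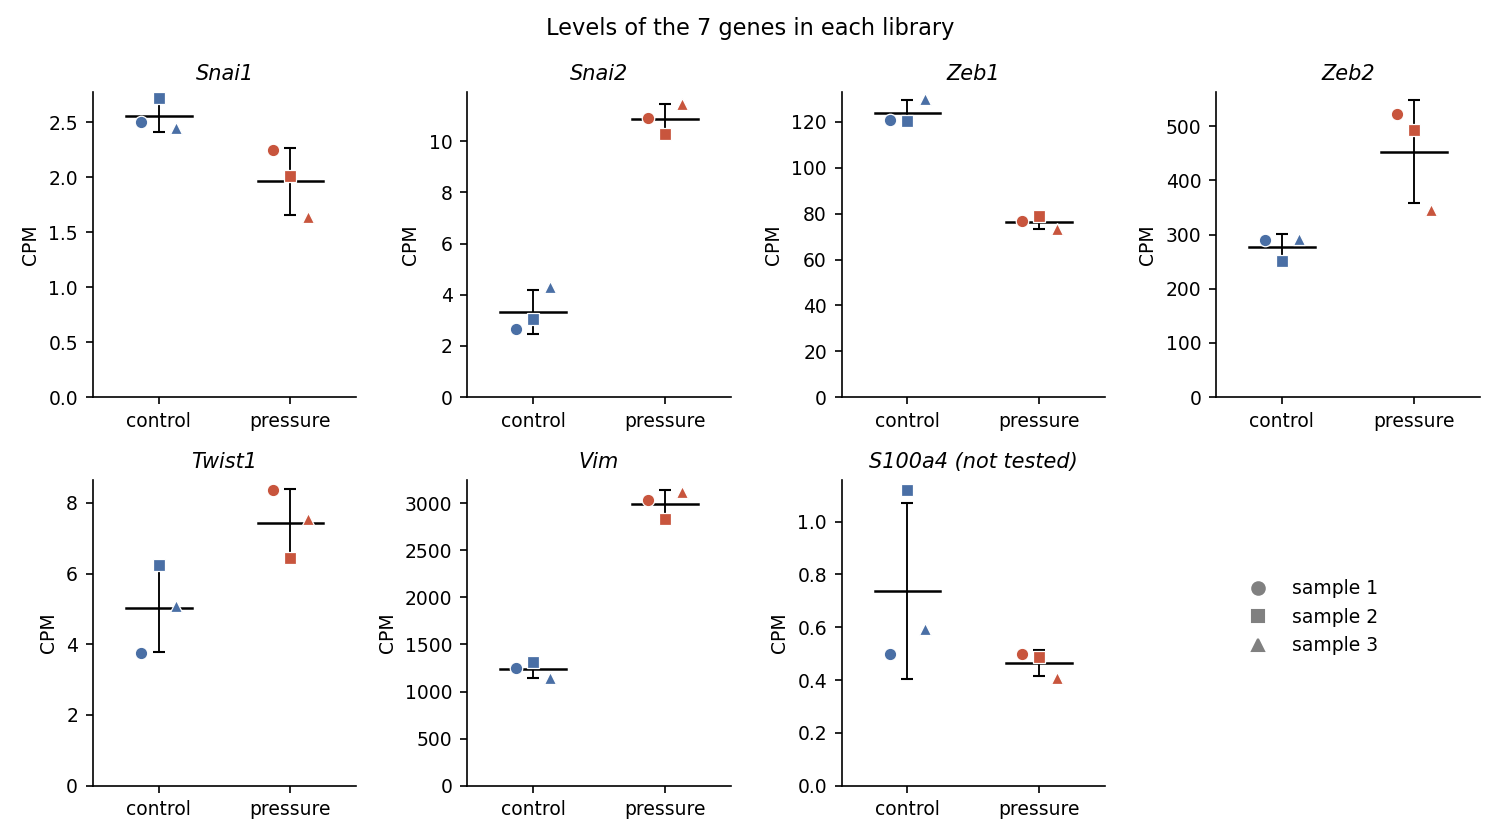
Level of each of the 7 genes (CPM, linear axes from 0) in the 3 control and 3 pressure libraries. Points are libraries, horizontal lines group means and whiskers 1 SD. Snai2, Vim and Zeb1 are separated by wide gaps relative to their spread, Zeb1 moves the other way from Zeb2, and pressure replicate 3 is low for Zeb2.

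Of the snail pair, Snai2 rose and Snai1 did not pass the test. Snai2 (Slug; chromosome 16, 14705852 to 14709385 in GRCm38, protein-coding, as are the other 6) measured 2.65, 3.04 and 4.30 CPM in the 3 controls, then 10.9, 10.3 and 11.5 CPM in the pressure group. All 3 pressure libraries lay above every control, and the gap between the groups was wider than the range of either. The log2 fold change was 1.73 ± 0.17 (SE; adjusted p = 9.07e-06, edgeR), and it rests on 53 to 65 deposited counts per control library and 140 to 175 per pressure library. Snai1, a repressor of E-cadherin and, like Snai2, a reader of E-boxes, measured 2.50, 2.72 and 2.45 CPM in the controls and 2.24, 2.01 and 1.64 CPM in the pressure libraries. The groups did not overlap, and the highest pressure library came close to the lowest control. Its log2 fold change of -0.37 ± 0.20 did not pass (adjusted p = 0.124, edgeR); the 95% interval of the fold, 0.571 to 1.05, includes no change. With library totals only, the setting that lowers all genes, Snai1 passed as lower (-0.58 ± 0.20, adjusted p = 0.0216, edgeR; 0.0216 to 0.319 over its alternatives). Each library held 20 to 51 Snai1 counts.

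A ratio of 2 genes within a library needs no scaling factor. Per Snai1 count there were 1.06, 1.12 and 1.76 Snai2 counts in controls and 4.86, 5.12 and 7.00 under pressure. The mean ratio was 1.31 ± 0.387 (SD, n = 3) in controls and 5.66 ± 1.17 under pressure, with no overlap. The pair had similar counts in the first and second control, and Snai2 had several times more counts than Snai1 in every pressure library. Snai3, another snail gene, was at or near 0 in all libraries and was not tested.

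The ZEB pair moved in opposite directions. Zeb1 (chromosome 18, 5591860 to 5775467) measured 121, 120.2 and 130.2 CPM in the controls and 76.8, 79.0 and 73.2 CPM in the pressure libraries, 2 narrow and well separated groups. It fell by 0.70 ± 0.076 on the log2 scale (adjusted p = 1.63e-05, edgeR). Zeb2 (Sip1; chromosome 2, 44983632 to 45117395) measured 290.4, 250.9 and 292.3 CPM in the controls and 521.8, 493.5 and 345 CPM in the pressure libraries. All pressure libraries were above all controls, but replicate 3 was much nearer to them than the other two. Its log2 fold change was 0.71 ± 0.14 (adjusted p = 9.10e-04, edgeR). The ratio of Zeb2 to Zeb1 counts was 2.40, 2.09 and 2.25 in controls and 6.79, 6.25 and 4.71 under pressure. Its mean went from 2.24 ± 0.155 (SD, n = 3) to 5.92 ± 1.08, and the groups did not overlap.

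**Figure D2:**
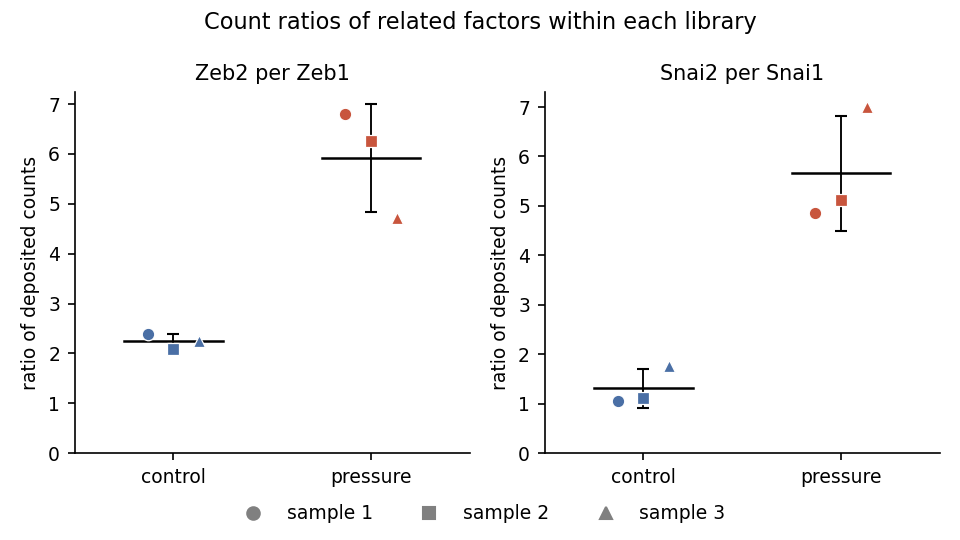
Deposited counts of Zeb2 per Zeb1 count and of Snai2 per Snai1 count in each library (linear axes from 0), which no scaling factor affects. Points are libraries, horizontal lines means and whiskers 1 SD; both ratios are higher in all 3 pressure libraries than in any control.

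Pressure replicate 3 stood apart from the others of its group (correlation of log2 CPM 0.987 and 0.989 with them, where those 2 gave 0.994), and its levels varied with transcript length. Relative to the other pressure libraries, the shortest of 5 equal groups of genes by length had a median log2 difference of 0.21 in it and the longest one of -0.25, whereas control replicate 3 differed from the other controls by -0.043 and 0.071. Zeb2 has the longest transcript of the members (9.12 kb) and was lower there by 0.56 on the log2 scale, and the 344 tested genes at least as long had a median of -0.41. Zeb1 (5.80 kb) differed by -0.090, and Vim (2.19 kb) and Snai2 (2.02 kb) by 0.086 and 0.11. Snai1 (1.62 kb) differed by -0.35 although its transcript is short. That difference rests on few counts, 20 in pressure replicate 3 against 36 and 33 in the others. Without that library Zeb2 rose by 0.87 ± 0.070 (adjusted p = 4.43e-12, edgeR). Over its alternatives the adjusted p ran from 4.43e-12 to 0.00607. In the same fit the adjusted p also fell for Snai2 (5.37e-10, edgeR) and Vim (2.45e-16, edgeR). Their log2 fold changes there were 1.70 and 1.25, so the smaller p is not particular to Zeb2. Without pressure replicate 3 the members' calls were still 4 higher and 1 lower. Whether RNA length or quality contributes to the lower Zeb2 value in that library was not tested.

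**Figure D3:**
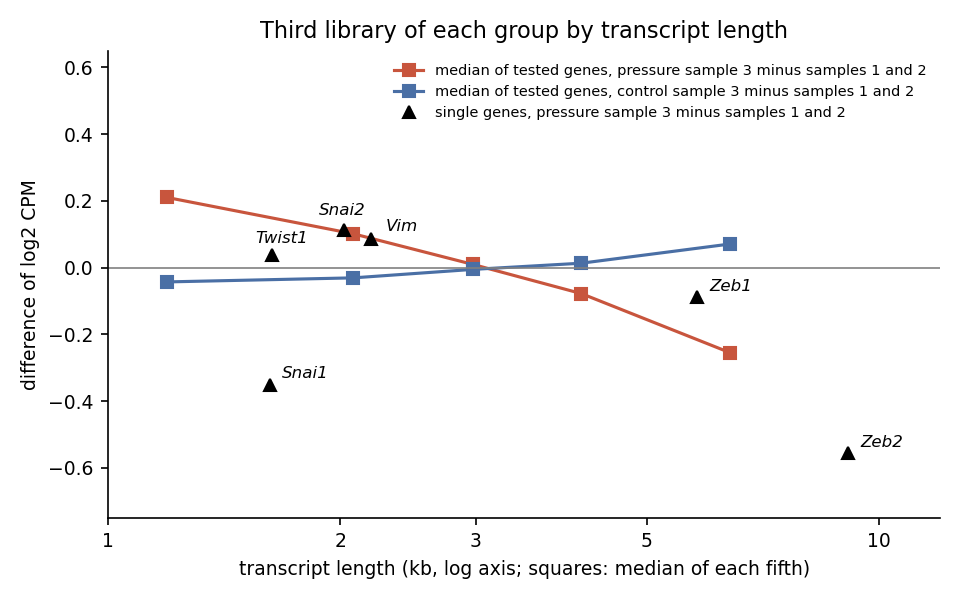
Difference in log2 CPM between replicate 3 of each group and the mean of its other 2 libraries, against transcript length (log axis, kb). Squares are medians of tested genes in 5 equal groups by length (red pressure, blue control) and triangles are the 6 tested members in the pressure group; Zeb2, the longest, lies lowest at -0.56.

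Overlapping genes bear on the ZEB pair, since the library kit keeps strand, per the labels' protocols, but the strand setting of the authors' counting is not known, and sense and antisense reads may not have been told apart. Zeb2os, an antisense gene that shares 653 exonic bases with Zeb2, had a level of 9.85 ± 0.254 CPM in the controls (SD, n = 3), 6.72 ± 0.965 CPM in the pressure group, and fell by 0.56 ± 0.14 on the log2 scale (adjusted p = 0.00375, edgeR), opposite to Zeb2. Its counts were 0.0332 to 0.0403 of those of Zeb2 in controls and 0.0108 to 0.0214 under pressure. Mir5129, a miRNA gene that lies within Zeb2 on the same strand, was counted separately at 2.12 ± 0.237 and 3.98 ± 0.925 CPM. Its count rose with that of Zeb2 (0.94 ± 0.21). The reads counted there may be reads of Zeb2 itself, which was not tested. The antisense gene annotated across Zeb1, Gm10125, stayed below 0.5 CPM in every library. S100a4 shares 302 exonic bases with a protein-coding gene model on the same strand.

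Twist1, which is needed in mesoderm and in mesenchymal cell migration, rose modestly and with the least secure call. It measured 3.75, 6.24 and 5.09 CPM in the controls and 8.35, 6.44 and 7.53 CPM in the pressure libraries. The second control library nearly reached the second pressure library. The log2 fold change was 0.57 ± 0.19 (adjusted p = 0.0222, edgeR), from 75 to 134 counts per library. The call was lost with upper-quartile factors (0.45, adjusted p = 0.0627, edgeR) and with library totals only (0.35, adjusted p = 0.123, edgeR). It was also lost without control replicate 1 (0.38, adjusted p = 0.0989, edgeR), without control replicate 3 (0.58, adjusted p = 0.0558, edgeR) and without pressure replicate 1 (0.47, adjusted p = 0.0758, edgeR). Over all its alternatives the adjusted p ran from 0.00692 to 0.123. Its relative Twist2 was below 1 CPM on average in both groups and was not tested.

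The partners of Twist1 moved both ways and 3 listed inhibitor genes rose. E-proteins form dimers with Twist1 on DNA, and the Id proteins, which lack a DNA-binding region, sequester E-proteins. Of the E-protein genes, Tcf4 rose from 240.1 ± 15.2 to 437.9 ± 50.05 CPM (SD, n = 3; log2 change 0.87 ± 0.093) and Tcf12 rose by 0.36 with overlapping groups, whereas Tcf3 fell by 0.32. All 3 Id genes on the list examined rose. Id1 went from 4.59 ± 0.171 to 14.8 ± 1.13 CPM (1.69 ± 0.12). Id2 went from 143.5 ± 7.65 to 290.3 ± 15.4 CPM (1.02 ± 0.076), and Id3 rose by 0.48. These belong to a list of 26 other factors tied to epithelial- or endothelial-to-mesenchymal transition, of which 13 were tested. In it 10 rose and 1 fell (2 fell without control replicate 1 or any single pressure replicate), the median log2 change being 0.71, where 33.7% of all tested genes rose and their median was -0.015. With library totals only, 8 rose and 1 fell. Sox4, a high-mobility-group factor, rose from 307 ± 12.8 to 451 ± 69.2 CPM, and Hmga2, a chromatin protein that cooperates with SMADs on Snai1, rose by 0.71. The forkhead genes Foxc1 and Foxq1 rose by 0.88 and 1.67 from 1.56 and 0.597 CPM, while Foxf1 (0.092) and Prrx1 (-0.17) did not pass.

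Vimentin transcripts rose in every pressure library. Vim (chromosome 2, 13573927 to 13582826) measured 1255, 1313 and 1141 CPM in the controls and 3040, 2836 and 3116 CPM in the pressure libraries. The highest control was below the lowest pressure library by a wide margin, and each group varied little. The log2 fold change was 1.28 ± 0.071 (adjusted p = 2.35e-07, edgeR), with 17276 to 48785 counts per library. Vim made up 0.124% to 0.141% of all deposited counts in controls and 0.264% to 0.294% under pressure, a share that uses no composition factor. Per count of the endothelial gene Pecam1, which did not pass the test, Vim had 1.10, 1.18 and 1.01 counts in controls and 2.73, 2.53 and 2.96 under pressure.

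Among 23 other intermediate filament and linker genes 12 were tested, of which 7 rose and 2 fell (1 fell without any single sample other than pressure replicate 3); their median was 0.39 on the log2 scale. The called genes were 58.3% and 16.7% of those tested, where 33.7% of all tested genes rose and 35.1% fell. With library totals only, 5 rose and 3 fell, with a median of 0.17. One of the listed genes, Tmcc3, is not a filament gene, and it did not pass (-0.030). Nes (nestin), a filament protein that copolymerises with vimentin, rose from 87.0 ± 2.76 to 133.3 ± 9.78 CPM (SD, n = 3; 0.61 ± 0.080). The cytolinkers Dst (dystonin) and Plec (plectin), which tie filaments to adhesions and the cytoskeleton, rose by 1.10 ± 0.18 and 0.51 ± 0.093. Dst, like Zeb2 encoded by long transcripts, reached only 138.2 CPM in pressure replicate 3 against 250.2 and 197.3 CPM in the others. The epithelial keratin genes Krt8 and Krt18 rose by 0.52 and 0.87 at levels below 5 CPM, and Nefh by 1.95 from 1.49 CPM. Des (desmin), the filament of muscle and stellate cells, fell from 4.90 ± 0.599 to 2.09 ± 0.407 CPM. Lmnb1 (lamin B1) passed narrowly (0.26 ± 0.095, adjusted p = 0.0301, edgeR) and not with library totals only (0.048, adjusted p = 0.68, edgeR; 0.0174 to 0.68 over its alternatives). Lmna did not pass (0.10).

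S100a4 was barely detected. It had 10, 21 and 9 counts in controls and 8, 8 and 5 under pressure, or 0.500, 1.12 and 0.595 CPM against 0.498, 0.486 and 0.409 CPM. The values of the first control and the first pressure library were all but equal, and control replicate 2 held more counts than the other two controls together. It did not reach the low-count filter. Without that filter its log2 fold change was -0.67 ± 0.45 (adjusted p = 0.231, edgeR), so no difference was detectable at this depth. Of 17 other listed S100 genes 7 were tested, and 1 rose (14.3%) and 3 fell (42.9%), where 33.7% and 35.1% of all tested genes did. S100a11 rose from 44.1 ± 4.59 to 78.0 ± 7.62 CPM (SD, n = 3), S100a13 fell from 30.1 ± 2.50 to 13.9 ± 2.25 CPM, S100a1 fell by 0.57 on the log2 scale, and S100pbp, which encodes an S100-binding protein rather than an S100 protein, fell by 0.97. S100a16 and S100a10 did not pass (0.17 and -0.015).

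Levels of different genes were compared per transcript length, as CPM per kb. In controls the order was Vim at 564 ± 39.9, Zeb2 at 30.5 ± 2.56, Zeb1 at 21.3 ± 0.958, Twist1 at 3.09 ± 0.766, Snai2 at 1.65 ± 0.426, Snai1 at 1.58 ± 0.0900 and S100a4 at 1.48 ± 0.671 (SD, n = 3). The last 3 did not differ beyond their spread. Under pressure it was Vim at 1370 ± 66, Zeb2 at 49.7 ± 10.4, Zeb1 at 13.2 ± 0.502, Snai2 at 5.38 ± 0.295, Twist1 at 4.57 ± 0.587, Snai1 at 1.21 ± 0.188 and S100a4 at 0.933 ± 0.0970. Snai2 moved ahead of Twist1 in this order, although their pressure values still overlapped. On this scale Vim stood above 99.3% of tested genes in controls, Zeb1 above 72.4% and Snai1 above 18.6%.

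**Figure D4:**
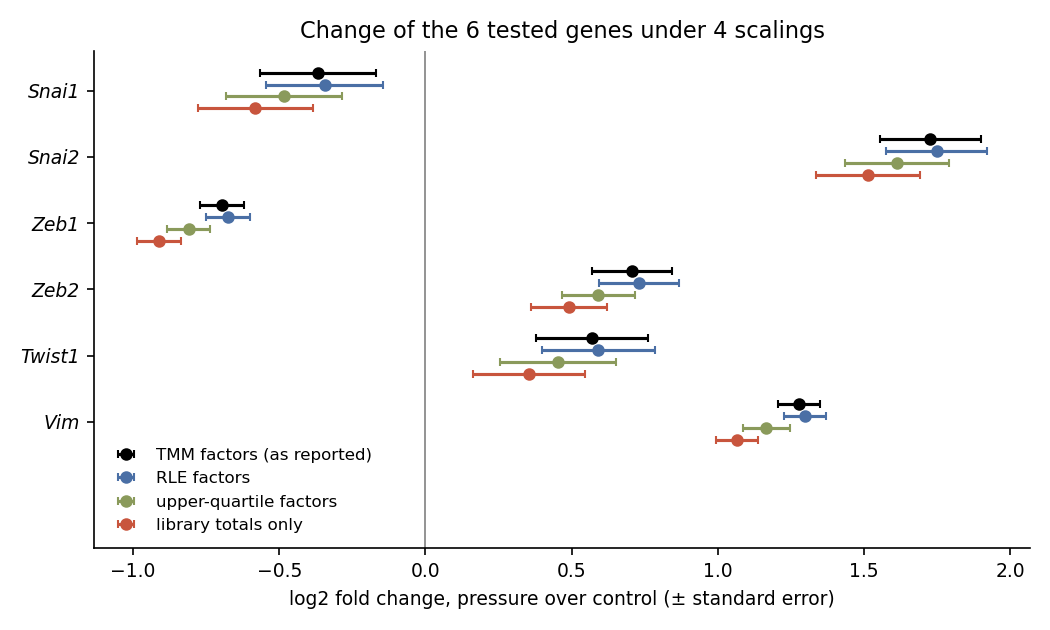
log2 fold change, pressure over control, of the 6 tested members with 4 ways of scaling the libraries (points; whiskers are standard errors). No member changes sign; Snai1 and Twist1 are the 2 whose call depends on the scaling.

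The snail and ZEB proteins act through corepressors and are controlled by kinases, ubiquitin ligases and deubiquitinases, and genes of this kind moved both ways. Of 29 tested, 12 were called higher (41.4%) and 8 lower (27.6%), where 33.7% and 35.1% of all tested genes were. Their median was 0.11 (10 higher, 11 lower and a median of -0.11 with library totals only). One of those that fell, Pkd1, encodes polycystin-1 and is no regulator of these factors; it was listed for sharing an abbreviation with the kinase gene Prkd1. Gsk3b, the kinase that marks Snai1 for degradation, rose by 0.73 and the ligase subunit gene Btrc, which recognises that mark, fell from 17.8 ± 0.752 to 9.40 ± 0.668 CPM (SD, n = 3; -0.92 ± 0.11). Fbxl14, another ligase subunit for snail proteins, rose by 0.64. Psmd14, a deubiquitinase of the proteasome, rose from 139.8 ± 5.94 to 216.4 ± 11.4 CPM and Usp27x, a deubiquitinase of Snai1, by 1.22. The deacetylase gene Sirt1 rose from 41.8 ± 3.63 to 108 ± 9.95 CPM (1.37 ± 0.098). Among corepressors Ctbp1 rose by 0.30 and Sin3a fell by 0.55, and Hdac1, Hdac2, Kdm1a and Ctbp2 did not pass. The acetyltransferase gene Kat2b fell from 46.3 ± 2.83 to 25.6 ± 1.59 CPM.

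In the TGF-beta pathway, the best known inducer of the transition, 15 of 29 tested genes were called higher and 8 lower (5 lower without control replicate 1), around a median of 0.34. The called genes were 51.7% and 27.6% of the list, where 33.7% and 35.1% of all tested genes were called. With library totals only, 13 were higher and 11 lower, around a median of 0.13. Among ligands Tgfb1 fell from 149.7 ± 9.73 to 86.4 ± 4.60 CPM (SD, n = 3), Tgfb3 fell by 1.00 from 1.16 CPM and Tgfb2 rose by 1.78 from 0.819 CPM. Among receptors Tgfbr1 rose by 0.92, Tgfbr2 and Tgfbr3 fell by 0.38 and 0.64, and Acvr1, a type I receptor of the BMP branch, rose from 45.4 ± 1.31 to 95.3 ± 12.6 CPM (1.07 ± 0.10). Eng (endoglin), an endothelial co-receptor, fell by 0.19 with overlapping groups and an adjusted p of 0.046 (edgeR). Of the signal-transducing SMAD genes, Smad2 and Smad4 rose by 0.84 and 0.34, and Smad3 did not pass (-0.13). Genes that restrain the pathway moved both ways: the decoy receptor gene Bambi went from 3.57 ± 0.370 to 14.4 ± 2.71 CPM (2.02 ± 0.17), the inhibitory Smad7 from 22.6 ± 1.87 to 47.1 ± 2.83 CPM (1.06 ± 0.096) and the corepressor gene Tgif1 from 107.7 ± 2.81 to 194.4 ± 13.9 CPM (0.85 ± 0.078). Smurf1, Smurf2, Pmepa1 and Ski rose by 0.91, 0.78, 0.99 and 0.48, whereas Smad6 fell by 0.39 with overlapping groups and Skil did not pass.

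Mesenchymal genes that serve as readouts of a completed transition did not rise as a group. Of 31 tested, 7 rose (22.6%), 8 fell (25.8%) and 16 did not pass, and the median was -0.15. Of all tested genes 33.7% rose and 35.1% fell. Without control replicate 1 or pressure replicate 2, 4 rose. With library totals only, 4 rose and 17 fell, with a median of -0.36. The contractile genes Acta2 (smooth muscle actin), Tagln and Myl9 fell by 1.16, 0.49 and 1.64, with control means all below 10 CPM, and the smooth muscle gene Cnn1 had no count in any library. Fibrillar collagen genes were low, with Col1a1 at 1.15 ± 0.397 CPM (controls) and 1.47 ± 0.359 CPM (pressure) (SD, n = 3; adjusted p = 0.397, edgeR), Col1a2 (-0.22) and Col3a1 (-0.28) not passing and Col5a1 falling by 0.59. Cdh2 (N-cadherin), the classical partner of the cadherin switch, stood at 22.9 ± 0.750 and 22.1 ± 1.87 CPM and did not pass (-0.055), whereas Cdh11 rose by 1.46 from 0.807 CPM. Ctgf, a matricellular protein induced by TGF-beta and by YAP, rose from 297.7 ± 2.75 to 852 ± 67.95 CPM, and Tgfbi rose from 7.35 ± 1.05 to 16.9 ± 1.26 CPM. Fn1 (fibronectin) rose by 0.79 from 10.4 CPM with overlapping groups. Itgb3 (integrin beta 3) fell from 89.6 ± 3.27 to 29.2 ± 0.630 CPM (-1.62 ± 0.078) and the membrane protease gene Mmp14 from 421 ± 22.2 to 279.7 ± 36.5 CPM.

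Genes listed as endothelial readouts split as well. Of 20 tested, 8 rose (40%) and 7 fell (35%), close to the 33.7% and 35.1% of all tested genes. With library totals only 6 rose and 9 fell, and 4 fell without control replicate 1 or 2. Without pressure replicate 3, 10 rose and 6 fell, where 4780 and 4966 of 13125 tested genes did. The list median of 0.038 turned to -0.18 with library totals only. The junction genes Cldn5 (claudin 5), Esam and Ocln (occludin) rose by 0.63, 0.62 and 0.84, and Icam2 rose from 42.6 ± 2.11 to 71.9 ± 6.44 CPM (SD, n = 3). Cdh5 (VE-cadherin), a recognised target of snail repression, measured 1956, 1644 and 1891 CPM in the controls (1831 ± 164.5). Its pressure values were 2401, 2307 and 1661 CPM (2123 ± 403). Pressure replicates 1 and 2 lay above every control, and pressure replicate 3 lay within the control range. Cdh5 did not pass (0.21, adjusted p = 0.15, edgeR). Genes that fell included Nos3, the endothelial nitric oxide synthase (82.6 ± 4.51 to 27.9 ± 3.45 CPM), Robo4 (247.8 ± 7.06 to 135.7 ± 3.77 CPM) and Kdr, a receptor for VEGF (209.9 ± 10.1 to 126 ± 2.89 CPM), whereas Flt1, another VEGF receptor, rose from 32.4 ± 1.39 to 46.2 ± 5.25 CPM (0.51 ± 0.10). The transcription factor gene Erg fell by 0.56 and Fli1, of the same family, rose by 0.27. Mcam, which encodes the CD146 antigen used for selection, rose by 0.97.

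**Figure D5:**
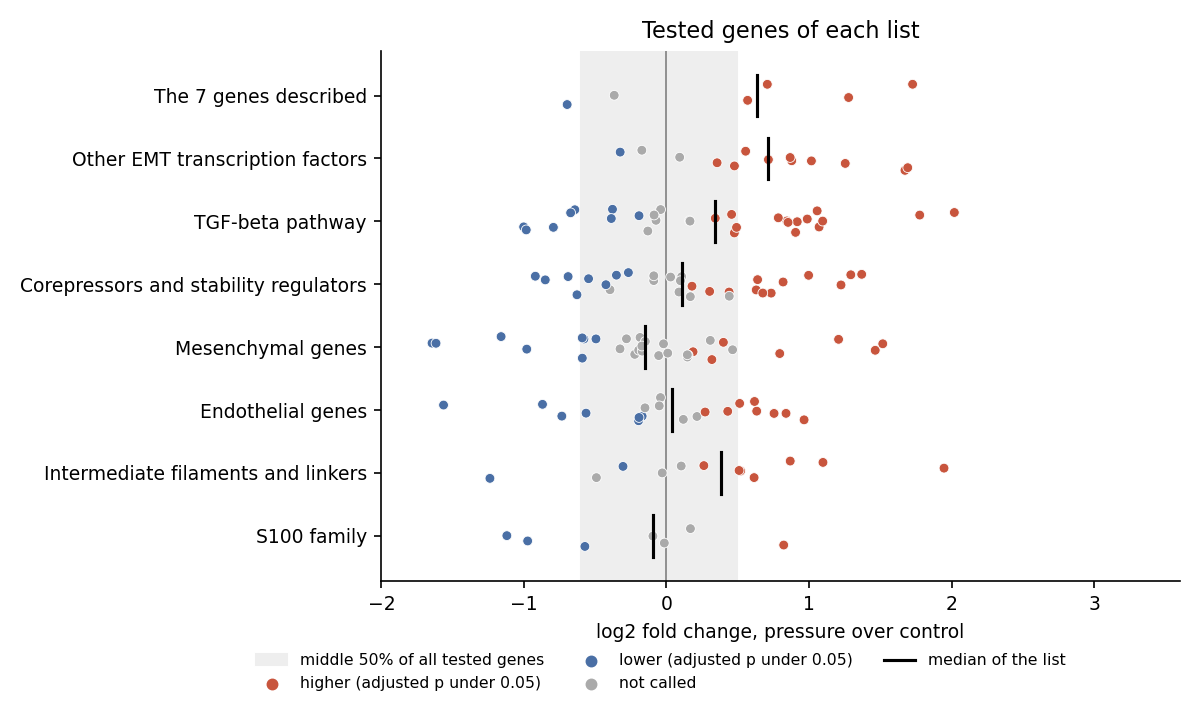
log2 fold change of each tested gene in the 7 described genes and 7 related lists (red higher, blue lower, grey not called; black bars are list medians; the grey band holds the middle 50% of all tested genes). Other transition factors, a list that also holds the inhibitors Id1, Id2 and Id3, lie mostly to the right with a median of 0.71. Mesenchymal and endothelial genes spread to both sides.

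Listed markers of LSECs (12 genes, Stab1, Stab2, Lyve1 and others) were present in all libraries. They summed to 7330 to 7600 CPM in controls and 4870 to 5440 CPM under pressure, where 8 fell and 0 rose. Most of the sum was Stab1, Cd36, Pecam1, Fcgr2b and Mrc1 (control means from 966.4 to 1498 CPM), and Pecam1 is on the endothelial list too. Clec4g, Gpr182 and Dnase1l3 had control means from 34.4 to 64.9 CPM. Macrophage markers were also present (16 genes, none at 0 throughout, 7190 to 7770 CPM in controls and 6760 to 7280 CPM under pressure; 3 rose and 3 fell). In bulk samples fewer cells of a type and less RNA per cell cannot be told apart. Macrophages also express Vim and Zeb2. The summed macrophage markers overlapped between the groups, and of single ones Ptprc, Csf1r and Marco rose by 0.65, 0.39 and 0.21 while Cd5l, Vsig4 and Cd163 fell by 0.44, 0.57 and 1.02. Stellate cell and smooth muscle markers summed to 238 to 248 CPM in controls and 261 to 283 CPM under pressure. Of 11 tested, 2 rose and 3 fell (Des, Acta2 and Ngfr). Most of the sum was Dcn, Ecm1 and Reln. Dcn rose from 103.9 ± 3.85 to 132 ± 4.76 CPM (SD, n = 3), whereas Ecm1 (0.17) and Reln (-0.30) did not pass. Cnn1 and Gfap were at 0 and Lrat was below 0.3 CPM on average. Fibroblast and mesothelial markers summed to 138 CPM in controls and 138 to 177 CPM under pressure (2 of 9 tested rose and 2 fell). The highest value was that of pressure replicate 3. Most of this sum was Gas6 (84.8 ± 3.03 and 90.6 ± 19.6 CPM, not passing), followed by Cd34, which is also on the endothelial list. Hepatocyte markers (30 to 37 CPM, then 46 to 53 CPM; 4 of 5 tested rose) and cholangiocyte markers (11 to 12 CPM, then 19 to 21 CPM; 3 of 4 tested rose) were higher under pressure, and T, B and NK cell markers (6.56 to 7.99 CPM, then 4.18 to 5.36 CPM; 0 of 3 rose and 2 fell) and neutrophil and monocyte markers (18.9 to 23.0 CPM, then 13.3 to 15.9 CPM; 0 of 4 rose and 1 fell) were lower. Dendritic cell markers summed to 110 to 129 CPM, then 130 to 150 CPM (2 of 4 tested rose and 1 fell). Most of that sum was H2-Ab1, which rose from 81.6 ± 7.23 to 118.6 ± 11.1 CPM (SD, n = 3). Clec9a went the other way, from 19.5 ± 1.33 to 1.43 ± 0.236 CPM (log2 change -3.77 ± 0.16). Xcr1 rose by 1.99 from 0.281 CPM, and Zbtb46 did not pass (-0.16). Over all tested genes 33.7% were called higher and 35.1% lower. The part of these cells in the members' changes was not tested.

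For each tested member the 3 genes with the most similar pattern over the 6 libraries were found by the root mean square difference of centred log2 CPM, among about 9700 named genes of at least 5 CPM. Zeb1 was most like Ctnnd1 (p120-catenin; difference 0.0163), She (0.0211) and Golga3 (0.0241). Zeb2 was most like Ranbp2 (a nuclear pore component, 0.0184), Neo1 (0.0302) and Kif5b (0.0303), which were likewise low in pressure replicate 3: Ranbp2 stood at 253 CPM there against 386.9 and 370.7 CPM. Vim was most like Thoc3 (0.0170), Zfp777 (0.0315) and Nle1 (0.0325), and Snai1 like Rfx1 (0.0328), Cnnm2 (0.0412) and Ahsa2 (0.0539). The nearest genes of Snai2 and Twist1 were farther away, at 0.128 for Kdelr3, 0.144 for Snhg1 and 0.151 for Cldn12, and at 0.134 for Tyw3 and 0.141 for Pdcd2. With 2 groups of 3, such likeness mainly ranks genes by the size of their group difference.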

How the data were processed

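Polyadenylated RNA from 3 control and 3 pressure samples had been read in single reads of 101 bases, per the labels' protocols. The deposited values are expected counts, some of them fractional, listed by gene symbol. The submitters' processing notes name Cufflinks 2.2.1, TopHat2 2.2.1 and the build mm10; what each did, how counting handled strand and which annotation it used is not given in the sources used here. Library totals ranged from 12922959 to 18655749, and more counts give smaller errors. Counts were rounded, filtered with filterByExpr (minimum count 10, minimum total 15) and tested in edgeR 4.0.16 (R 4.3.3) without covariates, two-sided; SE is the log2 fold change divided by the square root of F. No libraries of a group agreed within sampling noise (chi-square per degree of freedom at least 3.05). Replicate numbers did not pair the samples.

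The members and lists were chosen with earlier results of these data known. Named genes are the members, up to 4 called genes of at least 5 CPM with the smallest p per list, and the 3 most similar genes per tested member, of which 1 is not reported here; other list genes were named after their values were seen. Transcript lengths (longest principal transcript) and positions came from GENCODE M21 on GRCm38 and covered 95.91% of tested genes. Data were simulated with the gene means and library sizes of this comparison (12711 genes). Of 65 genes changed 1.5-fold 78.46% were recovered, of 67 changed 2-fold 91.04%, and of 66 changed 4-fold 100%. Of the calls made there, 7.29% were false. Far fewer genes were changed in that simulation than the 68.8% called here, and the length-related shift of pressure replicate 3 was not simulated. These rates therefore do not give the recovery or the share of false calls in the real data. Alternatives were DESeq2 1.42.0, limma-voom (limma 3.58.1), other scalings and filters, unrounded counts, a replicate block, scaling without the 50 genes of highest count, and each sample left out in turn.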

Additional observations from a re-analysis of the deposited data

How the results depend on the processing

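Across 16 alternatives, Snai2, Vim, Zeb1 and Zeb2 kept their direction and their call, with log2 fold changes of 1.51 to 1.93, 1.06 to 1.32, -0.91 to -0.66 and 0.49 to 0.87. Snai1 (15 alternatives, since a minimum mean of 5 CPM removed it) was called only with library totals only (-0.58), and ranged from -0.47 to -0.27 without one sample. Twist1 lost its call with upper-quartile factors (0.45) and library totals only (0.35), and ranged from 0.38 to 0.76 without one sample. No member, most similar gene or gene picked by the list rule changed direction; alternatives for other named genes are not given. Counts of list members that moved by over 1.5 times were as follows. Mesenchymal genes had 4 higher and 13 lower with upper-quartile factors, 4 and 17 with library totals only, 3 higher with a minimum mean of 5 CPM (23 genes tested) and 4 higher with the replicate block. Filament genes had 1 lower with RLE factors, with DESeq2, with the block and with the 5 CPM minimum, which also gave 4 higher (7 genes tested). Other transition factors had 2 lower without the low-count filter. Endothelial genes had 4 lower with the block. Without one sample each, the ranges were 1 to 2 lower for other transition factors, 5 to 7 lower for the TGF-beta list, 4 to 8 higher and 6 to 11 lower for mesenchymal genes, 4 to 6 lower for endothelial genes and 1 to 2 lower for filament genes; the lowest counts came without control replicate 1 or pressure replicate 2 for mesenchymal genes, control replicate 1 for TGF-beta and control replicate 1 or 2 for endothelial genes. The cause of these shifts was not tested.

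The replicate block, in which sample numbers are matched, gave 8384 called genes against 8871 and changed no call of a member; deviations of same-numbered samples correlated at 0.129, -0.23 and -0.134, so the numbers were not taken as pairs, and not every sample correlated best with its own number. Genes below about 3 CPM, such as Snai1 and S100a4, rest on few counts; the smallest change detectable at such counts was not tested.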
